A study of Rattus norvegicus with 9 samples.

Results

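GABA is the main inhibitory transmitter of the adult brain, and 6 genes that make it, load it into vesicles or receive it are described here in rat hippocampus. They are Gad1, Gad2, Slc32a1, Gabra2, Gabrb1 and Gabbr1, found by gene name among the 30562 genes of the count table, where each name belonged to a single gene ID. Poly(A) RNA was sequenced in 9 libraries, 3 for each of the groups ChryM, Model and Ctrl, all from male Sprague-Dawley rats that were 6 to 8 weeks old at the start. ChryM rats were given chrysophanol, a plant anthraquinone, by gavage for 14 days, and the series title describes the treated animals as diabetic and depressed, which is the state of the Model group. The labels give no dose and do not explain the M in the group's name. Model rats ate a high-fat diet for 4 weeks, received 1 injection of streptozotocin at 50 mg/kg, which kills insulin-producing beta cells, and then went through 5 weeks of chronic unpredictable mild stress. From the series title, ChryM rats are taken to have had the same diet, injection and stress. ChryM and Ctrl thus differ in these as well as in chrysophanol. Ctrl rats were normal controls. The labels do not say which animals the libraries came from, so p-values here measure only the spread between these libraries.

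Glutamate decarboxylase makes GABA from glutamate and comes in a larger isoform, encoded by Gad1, and a smaller one, encoded by Gad2. The vesicular transporter encoded by Slc32a1 moves GABA and glycine into synaptic vesicles. Released GABA opens GABA-A receptors, chloride channels built from several subunits such as those encoded by Gabra2 and Gabrb1, and it also acts on GABA-B receptors, which signal through G proteins and need Gabbr1 and Gabbr2 together. In the hippocampus the synthetic enzymes and the vesicular transporter mark interneurons, while the receptors are found on principal cells as well.

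The promoters of the decarboxylase genes are shown because these genes serve the same reaction and had unequal levels here. Each sequence is the 250 bases before the RefSeq gene start in the assembly GRCr8, Gad1 at chr3:75777202-75777451 and Gad2 at chr17:89671468-89671717, both on the plus strand, and capitals mark motif matches on either strand.
Gad1: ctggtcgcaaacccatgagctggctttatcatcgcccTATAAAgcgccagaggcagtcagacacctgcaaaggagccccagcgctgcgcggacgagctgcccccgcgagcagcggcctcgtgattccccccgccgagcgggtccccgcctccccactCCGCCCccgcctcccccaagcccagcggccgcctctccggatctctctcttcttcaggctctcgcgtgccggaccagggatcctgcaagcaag
Gad2: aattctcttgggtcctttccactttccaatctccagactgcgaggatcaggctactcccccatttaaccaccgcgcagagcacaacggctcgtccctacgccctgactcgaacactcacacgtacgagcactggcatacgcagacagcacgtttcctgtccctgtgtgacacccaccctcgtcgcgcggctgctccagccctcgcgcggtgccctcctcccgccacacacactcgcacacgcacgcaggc
The motifs searched on both strands were the homeodomain core TAATTA, the cAMP response element core TGACGT, the TATA box TATAAA and the GC box GGGCGG. The Gad1 sequence held the TATA box letters 213 to 208 bases before the start and those of the GC box on the opposite strand 93 to 88 bases before it. The Gad2 sequence held none of these letters. These are matches of letters only, and their part in the levels of the genes was not tested. Of 33469 promoter windows of the same length, 12.9% held the TATA box letters, 30.5% the GC box, 6.95% the cAMP response element core and 4.86% the homeodomain core. Bases G and C made up 68.4% of the Gad1 window and 62.0% of the Gad2 window. RefSeq windows were found for 5 of the 6 genes.

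The libraries were shallow, with 631119 to 866048 counts each, so that 3 counts, the limit that a count of 0 allows, corresponded to 3.46 to 4.75 CPM, counts scaled to the library total. Genes of hippocampal excitatory neurons such as Slc17a7, the vesicular glutamate transporter, and Neurod6 were counted in all 9 libraries. Markers of its regions were uneven: of CA1 markers, Fibcd1 had 486 counts in all and Spink8 0. Of dentate markers, Prox1 had 11 counts in all and another of the list 263. Of 13 listed excitatory markers 9 were tested. With edgeR 2 were called lower in Model than in Ctrl and 2 higher in ChryM than in Model. In ChryM against Ctrl 1 was called higher and 1 lower. Of 8 striatal markers, the receptor genes Drd1 and Drd2 had 3 and 2 counts in all, while Ppp1r1b had 455 and Penk 140, and their sum stood at 91.5 to 109 CPM in ChryM, 99.3 to 111 CPM in Model and 97.9 to 118 CPM in Ctrl. Other cell types differed between groups: summed choroid plexus markers stood at 73.4 to 86.7 CPM in ChryM and 28.1 to 45.3 CPM in Model, against 1653 to 1734 CPM in Ctrl. Summed myelin markers stood at 15470 to 16450 CPM in ChryM and 8782 to 9851 CPM in Model, against 15520 to 15800 CPM in Ctrl. Summed pan-neuronal markers stood at 3548 to 3663 CPM in ChryM and 4334 to 4541 CPM in Model, against 4037 to 4348 CPM in Ctrl. With edgeR, 3 of 3 tested choroid plexus markers were called lower in ChryM and in Model than in Ctrl. Summed microglia, endothelial and astrocyte markers were also lower in every ChryM library than in the other groups. They stood at 109 to 131, 46.3 to 50.9 and 1399 to 1449 CPM in ChryM, 170 to 191, 67.8 to 85.3 and 1519 to 1580 CPM in Model, and 153 to 176, 76.7 to 95.8 and 1547 to 1691 CPM in Ctrl. Of 11 tested myelin markers, 7 were called higher in ChryM than in Model and 11 lower in Model than in Ctrl. In ChryM against Ctrl 1 was higher and 6 lower. Of 9 pan-neuronal markers, 6 were called lower and 0 higher in ChryM than in Model. In Model against Ctrl 1 was higher and 2 lower, and in ChryM against Ctrl 1 higher and 4 lower. Of all genes tested, 7.04% were called higher and 5.39% lower in Model against Ctrl. These shares were 3.86% and 4.41% in ChryM against Model, and 9.83% and 8.96% in ChryM against Ctrl. The part of these marker differences in the results below was not tested. In tissue RNA, fewer cells of a type and less RNA per cell cannot be told apart.

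None of the 4 genes with enough counts to test, Gad1, Slc32a1, Gabra2 and Gabbr1, passed the threshold in any comparison, while Gad2, too low to test, was counted mostly in Ctrl. With edgeR and a Benjamini-Hochberg adjusted p under 0.05 over 7073 genes, 0 of 4 were called in Model against Ctrl, where 12.4% of all genes tested were called, 7.04% higher and 5.39% lower. In ChryM against Model 0 of 4 were called beside 8.27% of all genes (3.86% higher, 4.41% lower), and in ChryM against Ctrl 0 of 4 beside 18.8% (9.83% higher, 8.96% lower). At an unadjusted p under 0.05 there were 2 of 4 in Model against Ctrl, Slc32a1 and Gabra2, and 0 of 4 in each of the other comparisons. DESeq2 called 0 of the 2 among these 4 genes to which it gave an adjusted p in each comparison, and limma-voom called 0. The Model libraries serve in both Model against Ctrl and ChryM against Model, the Ctrl libraries in both Model against Ctrl and ChryM against Ctrl, and the ChryM libraries in both ChryM comparisons, so the comparisons are not independent. A test for any difference among the 3 groups, which called 23% of all genes and 0 of these 4, gave edgeR adjusted p values of 0.341 for Gad1, 0.198 for Slc32a1, 0.144 for Gabra2 and 0.338 for Gabbr1.

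Counted without a model, the CPM of the 3 libraries of each group did not overlap for 3 of the 6 genes in Model against Ctrl, where 26.1% of all genes tested did not overlap. These were Gad2, Gabra2 and Gabbr1, each lower in Model, a direction that 12.7% of all genes tested shared. Between ChryM and Model the groups did not overlap for 2 of 6, Gad1 and Slc32a1, both lower in ChryM, beside 23.6% of all genes tested in either direction and 11.7% in that direction. On library totals and on FPKM this was 1 of 6, Gad1 alone. In ChryM against Ctrl they did not overlap for 2 of 6, Gad1 and Gad2, both lower in ChryM, beside 31.7% in either direction and 15.8% in that direction. On library totals and on FPKM this was 4 of 6, with Gabra2 and Gabbr1 also lower in ChryM. On library totals the edgeR calls in ChryM against Ctrl leaned lower too, with 533 genes higher and 799 lower. With TMM these were 695 and 634. The part of this shift in the lower Gabra2 and Gabbr1 was not tested. Model against Ctrl kept the same 3 genes on all these scales. The shares of all genes were taken on TMM-scaled CPM only, over genes with enough counts to test, which Gad2 and Gabrb1 are not among. Of the 4 tested genes alone, 2 did not overlap in Model against Ctrl and 2 in ChryM against Model. In ChryM against Ctrl this was 1 of the 4. With 3 libraries against 3 the exact permutation test cannot go below a p of 0.1.

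**Figure D1:**
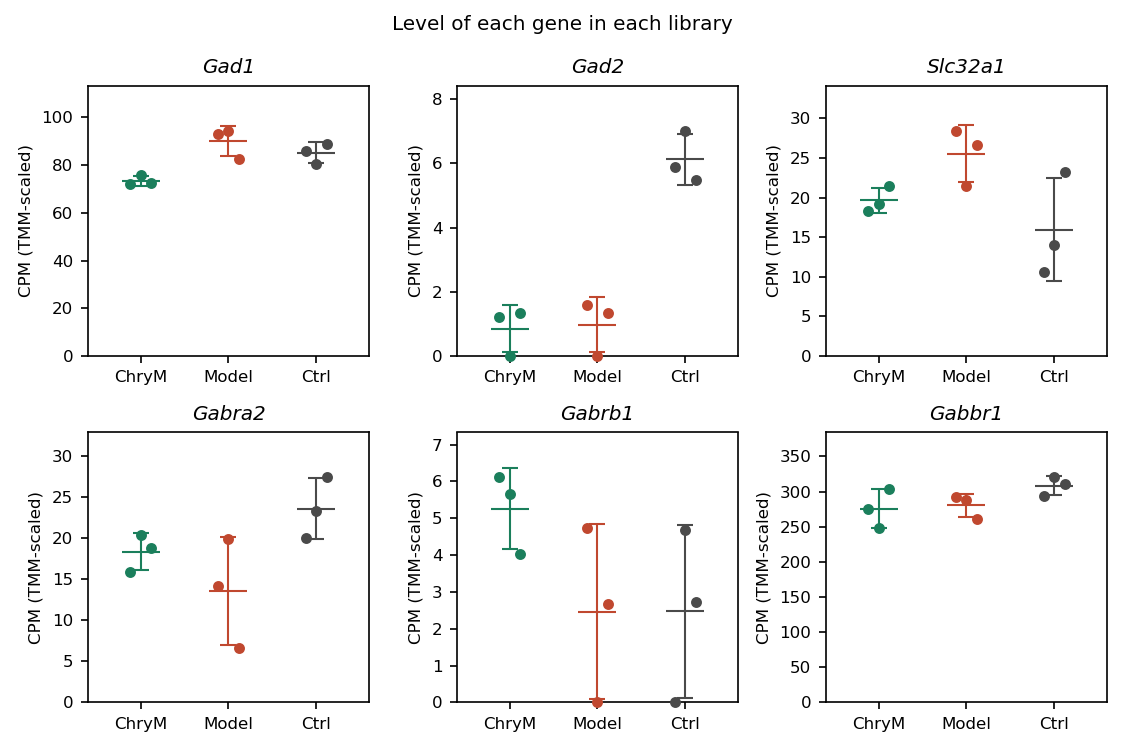
TMM-scaled CPM of the 6 genes (y axis of each panel) in the groups ChryM, Model and Ctrl (x axis), with 1 point per library, a line at the group mean and bars of 1 SD. The 3 Ctrl points of Gad2, at 5.48 to 7.01 CPM, lie above all points of the other groups, while the Gabrb1 points of all 3 groups overlap.

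Levels between genes are compared per length, as FPKM (fragments scaled by gene length and library total). The annotation and counting tool are not given, and their part in the order of genes was not tested. Over the 9 libraries Gabbr1 had the highest mean level, 57.3 ± 5.65 FPKM (SD, n = 9), followed by Gad1 with 24.4 ± 2.37 FPKM. Slc32a1 with 8.48 ± 2.13 FPKM and Gabra2 with 8.45 ± 2.82 FPKM lay close together, as did Gabrb1 with 1.77 ± 1.18 FPKM and Gad2 with 1.38 ± 1.45 FPKM. Of all genes in the table, 97.1% had a lower mean level than Gabbr1 and 66.4% a lower one than Gad2. In Ctrl, Gad2 stood above Gabrb1, at 3.25 ± 0.50 FPKM against 1.33 ± 1.29 FPKM (SD, n = 3 each). In ChryM the order was the other way without overlap, 0.428 ± 0.371 FPKM for Gad2 and 2.74 ± 0.618 FPKM for Gabrb1, and in Model, with 0.476 ± 0.416 FPKM for Gad2 and 1.23 ± 1.18 FPKM for Gabrb1, they did not differ beyond their spread. Slc32a1 and Gabra2 stood at 8.22 ± 0.518 and 8.32 ± 1.11 FPKM in ChryM, 10.3 ± 1.47 and 5.92 ± 2.86 FPKM in Model, and 6.91 ± 2.62 and 11.1 ± 1.44 FPKM in Ctrl. The order of their means in Model was the reverse of that in Ctrl. In Ctrl their libraries overlapped, and in the library Model 2 they were nearly equal, at 8.64 and 8.63 FPKM.

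Gad1 (ENSRNOG00000000007), the enzyme of basal GABA synthesis, was counted at similar levels in Model and Ctrl and at lower values in ChryM that did not pass the test. It had 59, 67 and 54 counts in ChryM, 59, 57 and 62 in Model, and 73, 69 and 65 in Ctrl. In CPM this was 72.0, 75.7 and 72.4 in ChryM, 93.1, 94.3 and 82.7 in Model, and 86.1, 80.6 and 89.0 in Ctrl. All ChryM libraries were lower than all others, and Model and Ctrl overlapped. The log2 fold change was -0.29 ± 0.16 (SE) in ChryM against Model, with an edgeR adjusted p of 0.315, and -0.21 ± 0.15 in ChryM against Ctrl, with an adjusted p of 0.371. In Model against Ctrl it was 0.08 ± 0.15, with an adjusted p of 0.833. On library totals in place of TMM factors this last value was -0.04, so it has no direction.

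Gad2 (ENSRNOG00000018200), the isoform attached to synaptic vesicles, was counted in all 3 Ctrl libraries and hardly at all in the others. It had 1, 0 and 1 counts in ChryM, 1, 0 and 1 in Model, and 5, 6 and 4 in Ctrl. These are sums of 2 counts in ChryM and 2 in Model, against 15 in Ctrl, and in Ctrl alone every library was above the limit of 3 counts. The ratio of Ctrl to Model, scaled for depth, was 6.12 with an exact 95% interval of 1.42 to 55.2, and that of Ctrl to ChryM was 7.55 with an interval of 1.76 to 68.0. Intervals and limits here cover counting error only. Tested without the count filter, over 17492 genes, Gad2 had an edgeR adjusted p of 0.129 in Model against Ctrl and of 0.0438 in ChryM against Ctrl. The edgeR test for any difference among the 3 groups, also without the filter, gave an adjusted p of 0.0328. No p for Gad2 was taken from the other settings, DESeq2 among them.

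Within the decarboxylase pair the share of counts that belonged to Gad2 was smaller in ChryM and Model than in Ctrl. It was 1.67%, 0% and 1.82% in the ChryM libraries, 1.67%, 0% and 1.59% in the Model libraries, and 6.41%, 8.00% and 5.80% in the Ctrl libraries. Over the libraries of a group this was 2 of 182 counts, or 1.10% (exact binomial 95% interval 0.133% to 3.91%), in ChryM and 2 of 180, or 1.11% (0.135% to 3.96%), in Model. In Ctrl it was 15 of 222 counts, or 6.76% (3.83% to 10.9%). The shares did not overlap between Model and Ctrl or between ChryM and Ctrl, and each gave an exact permutation p of 0.1, two-sided, the smallest possible here, adjusted to 0.375 over 15 tests of shares. This ratio within a library does not depend on the scaling between libraries. Myo3a lies within 5 kb of Gad2 in RefSeq, and no gene overlaps either decarboxylase gene there.

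**Figure D2:**
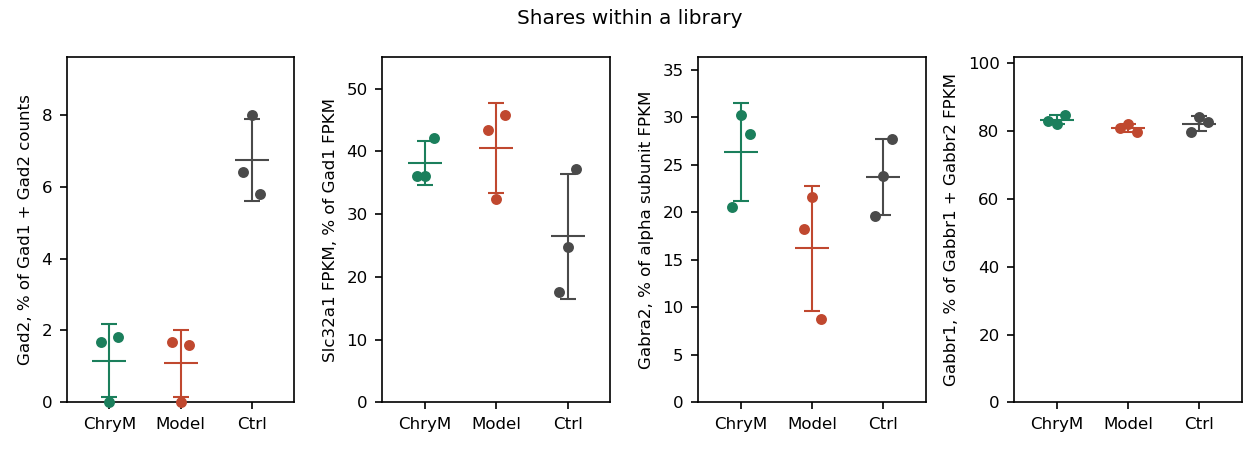
Shares in percent (y axis) per library in the groups ChryM, Model and Ctrl (x axis), with 1 point per library, a line at the group mean and bars of 1 SD. The Gad2 share of the decarboxylase counts is 5.80% to 8.00% in Ctrl and at most 1.82% in the other groups.

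Slc32a1 (ENSRNOG00000015393), the vesicular transporter, varied most among the Ctrl libraries. It had 15, 17 and 16 counts in ChryM, 18, 13 and 20 in Model, and 9, 12 and 17 in Ctrl, which is 18.3, 19.2 and 21.4 CPM in ChryM, 28.4, 21.5 and 26.7 CPM in Model, and 10.6, 14.0 and 23.3 CPM in Ctrl. Model was above ChryM in every library by a narrow gap that closed on library totals and on FPKM, and Ctrl overlapped with both. In Model against Ctrl the log2 fold change was 0.71 ± 0.31 (SE), with an edgeR adjusted p of 0.127. Without Ctrl 3 it was 1.05, with an adjusted p of 0.0399, and over all settings run the adjusted p lay between 0.0399 and 0.443. Between ChryM and Model it was -0.39 ± 0.29, with an adjusted p of 0.515, and in ChryM against Ctrl 0.32 ± 0.32, with an adjusted p of 0.528. Set against Gad1 on the FPKM scale, Slc32a1 came to 38.1 ± 3.47% in ChryM, 40.6 ± 7.15% in Model and 26.5 ± 9.94% in Ctrl (SD, n = 3 each), with exact permutation p values from 0.2 to 0.6 between groups.

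Gabra2 (ENSRNOG00000002349) encodes the alpha 2 subunit, which helps form the GABA binding site and is known from synapses onto the axon initial segment. It had 13, 18 and 14 counts in ChryM, 9, 12 and 5 in Model, and 17, 20 and 20 in Ctrl, or 15.9, 20.3 and 18.8 CPM in ChryM, 14.2, 19.9 and 6.67 CPM in Model, and 20.1, 23.4 and 27.4 CPM in Ctrl. Every Model library was below every Ctrl library, though Model 2 nearly reached Ctrl 1, and ChryM overlapped with both groups. The log2 fold change was -0.83 ± 0.34 (SE) in Model against Ctrl, with an edgeR adjusted p of 0.0899. It was -1.20 without Model 2, with an adjusted p of 0.0401, and -0.94 on library totals, with an adjusted p of 0.0438, and over all settings the adjusted p lay between 0.0401 and 0.532. ChryM against Model gave 0.48 ± 0.36, with an adjusted p of 0.494, and in ChryM against Ctrl -0.35 ± 0.29, with an adjusted p of 0.455.

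Gabrb1 (ENSRNOG00000002327), a beta subunit, was near the detection limit, so its comparisons are given as ratios of counts. It had 5, 5 and 3 counts in ChryM, 3, 0 and 2 in Model, and 0, 4 and 2 in Ctrl, sums of 13, 5 and 6. The depth-scaled ratio of ChryM to Model was 2.11 with an exact 95% interval of 0.706 to 7.56, and that of ChryM to Ctrl 2.15 with an interval of 0.763 to 6.91. Both intervals include 1. Its share of the summed FPKM of the 3 beta subunits, which rests on at most 5 Gabrb1 counts a library, was 65.9 ± 7.06% in ChryM, 27.6 ± 25.8% in Model and 26.5 ± 29.2% in Ctrl (SD, n = 3 each). ChryM and Model did not overlap in this share, with an exact permutation p of 0.1, adjusted to 0.375 over the 15 tests of shares. RefSeq lists 2 other genes that overlap Gabrb1, and without knowing whether counting used strand, their reads cannot be told apart.

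Gabra2 and Gabrb1 belong to a family of 19 GABA-A subunit genes. Gabra5, an extrasynaptic alpha subunit of hippocampal pyramidal cells, had the highest mean level of these with 17.1 FPKM, above Gabra2 with 8.45 FPKM. Gabra6, known from cerebellar granule cells, and Gabrq had 0 counts in all 9 libraries. Gabra2 took 26.4 ± 5.15% of the summed FPKM of the 6 alpha subunits in ChryM, 16.2 ± 6.62% in Model and 23.7 ± 4.04% in Ctrl (SD, n = 3 each), and all 3 groups overlapped. Gabra2 and Gabrb1 lie in a cluster of subunit genes on chromosome 14 in RefSeq, in the order Gabrb1, Gabra4, Gabra2, Gabrg1.

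Gabbr1 (ENSRNOG00000000774), the GABA-B subunit that binds GABA, had the most counts of the 6 genes and so the smallest error. It had 225, 220 and 227 counts in ChryM, 185, 174 and 196 in Model, and 249, 274 and 227 in Ctrl, or 275, 248 and 304 CPM in ChryM, 292, 288 and 261 CPM in Model, and 294, 320 and 311 CPM in Ctrl. Model lay just below Ctrl without overlap, while ChryM overlapped with both. The log2 fold change was -0.14 ± 0.10 (SE) in Model against Ctrl, with an edgeR adjusted p of 0.402, and -0.16 ± 0.09 in ChryM against Ctrl, with an adjusted p of 0.228. With only genes of at least 30 counts on average this second value was -0.22, with an adjusted p of 0.0422, and over all settings the adjusted p lay between 0.0422 and 0.665. For ChryM against Model it was -0.02 ± 0.10, with an adjusted p of 0.934, and it was 0.03 on library totals. Of the summed FPKM of Gabbr1 and Gabbr2, Gabbr1 took 83.3 ± 1.37% in ChryM, 80.9 ± 1.16% in Model and 82.1 ± 2.25% in Ctrl (SD, n = 3 each). ChryM and Model did not overlap in this share, by a gap smaller than either SD, with an exact permutation p of 0.1 and an adjusted p of 0.375 over the 15 tests.

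**Figure D3:**
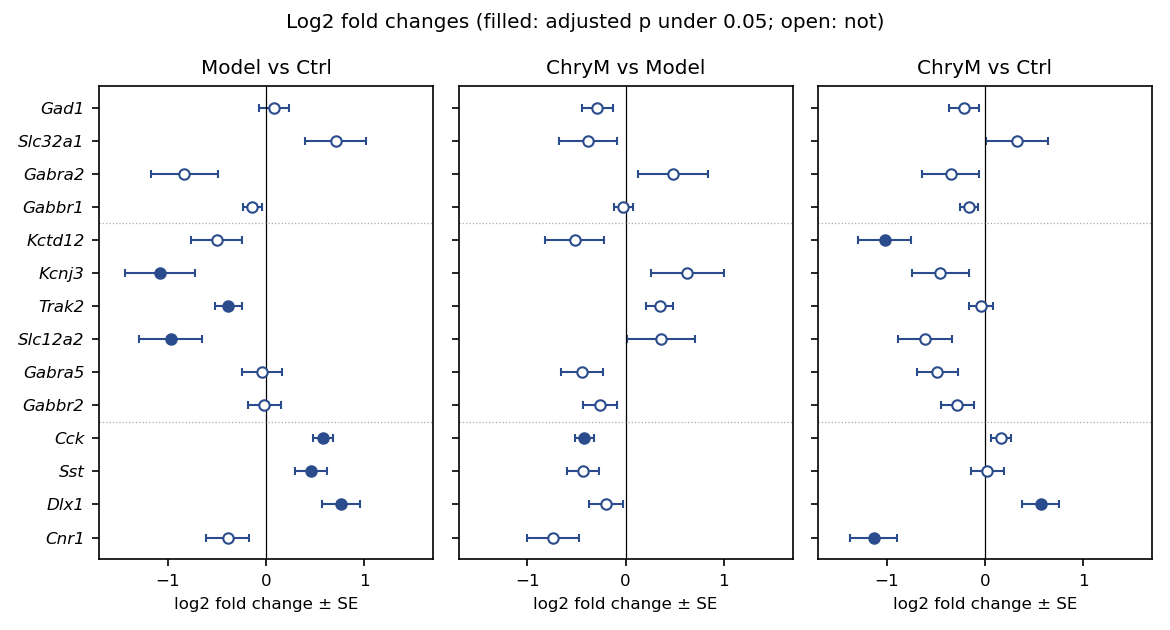
Log2 fold change with its standard error (x axis) for tested genes named in the text (rows), in panels for Model against Ctrl, ChryM against Model and ChryM against Ctrl, with filled points for an edgeR adjusted p under 0.05. Dotted lines part the 4 tested genes described above, none of them filled, from other genes of the pathway and from interneuron markers.

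Of 47 other genes of GABA metabolism, transport, reception, synaptic scaffold and chloride transport, 24 had enough counts to test, and the few that were called were all lower. In Model against Ctrl 3 of 24 fell and 0 rose, so that 12.5% fell, beside 5.39% of all genes tested. In ChryM against Model 1 of 24 fell and 0 rose, or 4.17% beside 4.41%, and in ChryM against Ctrl 2 of 24 fell and 0 rose, or 8.33% beside 8.96%. The share that fell was above that of all genes in Model against Ctrl, on 3 genes whose calls each depend on the processing as given below, and near it in the other comparisons. Called in either direction, the share of the list was 12.5% in Model against Ctrl, near the 12.4% of all genes tested. It was 4.17% beside 8.27% in ChryM against Model and 8.33% beside 18.8% in ChryM against Ctrl. The median log2 fold change of the 24 was -0.12, -0.07 and -0.19 in these comparisons, beside -0.02, 0.00 and -0.01 over all genes tested. In Model against Ctrl the list median was 0.008 with DESeq2 and 0.003 without the count filter, so its sign depends on the processing.

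Kcnj3, a potassium channel opened by GABA-B receptors, averaged 11.9 ± 4.33 CPM in Model and 24.4 ± 6.16 CPM in Ctrl (SD, n = 3 each), log2 -1.08 ± 0.35 (SE) with an edgeR adjusted p of 0.0207, lost without Model 1, Model 3 or Ctrl 2, without the count filter and on log2(FPKM + 0.1) (adjusted p up to 0.186). Slc12a2, the chloride importer, averaged 14.4 ± 3.96 CPM in Model and 28.9 ± 5.62 CPM in Ctrl, log2 -0.97 ± 0.32 with an adjusted p of 0.0226, lost without Model 2, Model 3, Ctrl 2 or Ctrl 3, without the count filter and on FPKM (adjusted p up to 0.146). It is also expressed in choroid plexus, whose markers were lower in Model as given above, and the part of that in this value was not tested. Trak2, a trafficking adaptor, was called in Model against Ctrl with log2 -0.39 ± 0.14 and an adjusted p of 0.0451, and 9 of 20 other settings kept it. The call was lost without ChryM 2, Model 2, Model 3, Ctrl 1 or Ctrl 2, with DESeq2, with limma-voom, without the count filter and on FPKM (adjusted p up to 0.306).

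Kctd12, an auxiliary subunit of GABA-B receptors, averaged 17.4 ± 3.45 CPM in ChryM and 35.9 ± 2.67 CPM in Ctrl (SD, n = 3 each), log2 -1.02 ± 0.27 (SE) with an edgeR adjusted p of 0.00189, and 0.0531 with DESeq2. The gene of gephyrin, the scaffold of inhibitory synapses, Gphn, had 0 counts in all 9 libraries, which for reads counted to it allows up to 0.438 CPM over their 6852064 counts. Glul, glutamine synthetase, was not called, at 424 ± 19.8 CPM in ChryM, 448 ± 14.9 CPM in Model and 451 ± 18.2 CPM in Ctrl. RefSeq lists other genes that overlap Trak2, Glul and Gphn, with the same limit as for Gabrb1, and how reads shared with the 6 loci that overlap Gphn were counted is not known. Gabra5 was not called either, with a log2 fold change of -0.48 in ChryM against Ctrl and an adjusted p of 0.0844.

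Markers of interneurons, the cells that express Gad1, Gad2 and Slc32a1, stood higher in Model as a sum than in the other groups. Of 24 listed, 9 were tested, and in Model against Ctrl 3 rose and 0 fell, beside 7.04% of all genes called higher. Cck alone fell in ChryM against Model, 1 of 9 beside 4.41% of all genes called lower, and 0 rose. Cck, a neuropeptide gene also active in pyramidal cells, had 206, 241 and 216 CPM in ChryM, 286, 291 and 309 CPM in Model, and 204, 189 and 201 CPM in Ctrl. It rose by log2 0.58 ± 0.10 (SE) in Model against Ctrl, with an edgeR adjusted p of 2.2e-06, and its log2 fold change was -0.42 ± 0.10 in ChryM against Model, with an adjusted p of 0.00144, and both calls held in every setting run. Dlx1, a homeobox gene of interneurons, averaged 74.3 ± 5.04 CPM in Model and 43.6 ± 2.06 CPM in Ctrl (SD, n = 3 each), log2 0.76 ± 0.19 with an adjusted p of 0.00181, which also held in every setting that gave a p. Sst, the somatostatin gene, was called in Model against Ctrl with log2 0.46 ± 0.16 and an adjusted p of 0.044, and 9 of 19 other settings kept it. The call was lost without Model 1, Model 2, Ctrl 2 or Ctrl 3, on library totals, without the count filter, among genes of at least 30 counts, with only the groups compared in the fit and on FPKM (adjusted p up to 0.253).

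In ChryM against Ctrl 1 interneuron marker of 9 rose, beside 9.83% of all genes, and 1 fell, beside 8.96%. Dlx1 averaged 65.3 ± 16.6 CPM in ChryM, log2 0.57 ± 0.19 (SE) with an edgeR adjusted p of 0.0199, lost without ChryM 3 or Ctrl 1, with DESeq2 and on FPKM (adjusted p up to 0.3). Cnr1, the cannabinoid receptor gene of Cck interneurons and other neurons, averaged 21.3 ± 8.03 CPM in ChryM and 47.2 ± 8.34 CPM in Ctrl (SD, n = 3 each), log2 -1.13 ± 0.24 with an adjusted p of 7.05e-05, held in every setting that gave a p. RefSeq lists other loci that overlap Dlx1 and Cnr1, and their reads cannot be told apart. The summed markers stood at 496 to 525 CPM in ChryM, 644 to 671 CPM in Model, and 484 to 494 CPM in Ctrl, and without Cck at 280 to 292 CPM in ChryM, 344 to 385 CPM in Model, and 286 to 294 CPM in Ctrl. The sum without Cck still holds Dlx1 and Sst, which were called higher in Model in these same data. The sums therefore do not show a rise across the whole list. Set beside them, Slc32a1 had a positive log2 fold change in Model against Ctrl that missed the threshold, as given above. Gad1 overlapped between Model and Ctrl. Gad2 was lower in every Model library than in every Ctrl library, on sums of 2 and 15 counts. A difference between these genes and the markers was not tested.

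The profile over the 9 libraries was compared with that of 2659 named genes of at least 30 counts on average, for the 2 members that reach this count. By root mean square difference of centred log2 CPM, Thy1 at 0.050 and Rnf26 at 0.056 were nearest to Gad1, beside a median of 0.255 over all candidates. For Gabbr1 these were Glul at 0.071 and Map7d1 at 0.077, beside a median of 0.249. The nearest of 2659 genes lie below the median by construction, and whether these genes vary together was not tested.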

How the data were processed

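The authors deposited read counts per gene as whole numbers and, beside gene lengths, FPKM values, per the file headers. FPKM equalled count over length and library total in 100% of values (relative tolerance 1e-09). The submitters' processing notes name HISAT2 and DESeq2, with no version; poly(A) RNA was made into dUTP strand-specific libraries, per the labels' protocols. Which tool counted the reads, whether strand was used, and on which build and annotation, is not given in the sources used here.

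Genes were kept with filterByExpr (7073 of 30562) and scaled with TMM. One fit of all 9 libraries, with no covariate, was tested with edgeR 4.0.16 (glmQLFit robust, glmQLFTest, two-sided) in R 4.3.3 at a Benjamini-Hochberg adjusted p under 0.05. The printed SE is the larger of the test's own and the counting error, and p-values are the test's. CPM are TMM-scaled. Alternatives were DESeq2 1.42.0 and its size factors, library totals, limma 3.58.1 (voom and log2 FPKM with pseudocounts of 1 and 0.1), other filters, and each library left out. Scripts were tested on simulated data.

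The 6 genes and all lists were chosen with earlier results of these data known. Other genes named are, of each list of the pathway and of interneuron markers, up to 4 called ones by smallest p for any difference, or the 2 highest where none was called, and the 2 nearest profiles; Gabbr2 was added as a receptor partner; some genes that this rule takes are not reported here, though list counts and sums hold them; other marker lists are given as sums or single checks chosen for the tissue label. Same-numbered libraries of different groups did not deviate together (correlations from -0.04 to 0.11 over 9 pairs), so they were not treated as pairs.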

Additional observations from a re-analysis of the deposited data

How the results depend on the processing

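Of the 20 other settings run, 3 called a member in Model vs Ctrl, 0 in ChryM vs Model and 2 in ChryM vs Ctrl, the last counting Gad2 without the count filter. For Gad2 and Gabrb1 a p was taken only from the run without that filter. Depth limits Gad2 and Gabrb1 most. The cause of the changes below was not tested.

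Genes called in Model vs Ctrl were 879 (498 higher, 381 lower), and 440 with DESeq2, 553 on log2(FPKM + 1), 521 on log2(FPKM + 0.1) and 614 to 887 with a library left out. In ChryM vs Model they were 585 (273 higher, 312 lower), and 262, 352, 351 and 390 to 621 in the same order. In ChryM vs Ctrl they were 1329 (695 higher, 634 lower), and 591, 793, 772 and 971 to 1349. The split moved to 290 higher and 641 lower in Model vs Ctrl on library totals, 359 and 81 with DESeq2, and 207 and 346 on log2(FPKM + 1). In ChryM vs Model it was 369 and 254 on library totals and 212 and 140 on log2(FPKM + 1). In ChryM vs Ctrl it was 533 and 799 on library totals and 385 and 206 with DESeq2. The median of all genes moved by -0.11 on library totals, -0.10 on log2(FPKM + 1) and -0.12 on log2(FPKM + 0.1) in Model vs Ctrl.

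Log2 fold changes of Gad1 in Model vs Ctrl turned to -0.038 on library totals, -0.033 on log2(FPKM + 1) and -0.034 on log2(FPKM + 0.1). Gabbr1 in ChryM vs Model turned to 0.028, 0.026 and 0.026, and ran from -0.10 to 0.049 with a library left out. Gabra2 in Model vs Ctrl was -0.94 on library totals and ran from -1.20 to -0.46 with a library left out, and Slc32a1 from 0.49 to 1.05. Gabbr1 in ChryM vs Ctrl was -0.22 among genes of at least 30 counts. Sst in ChryM vs Ctrl turned to -0.033 on library totals, -0.032 among genes of at least 30 counts, -0.027 on both FPKM scales, and ran from -0.081 to 0.16 with a library left out. With a library left out Trak2 in ChryM vs Ctrl ran from -0.13 to 0.034. The interneuron marker median in ChryM vs Ctrl was 0.16, and -0.18 with DESeq2 and -0.16 without the count filter, which add low genes. The median of the other GABA pathway genes in Model vs Ctrl was -0.12, and 0.008 and 0.003 in these settings.

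With the replicate block the counts were 855 in Model vs Ctrl, 586 in ChryM vs Model and 1319 in ChryM vs Ctrl, no member's call changed, and Trak2 in Model vs Ctrl went to an adjusted p of 0.0529.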

Other observations

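The sum of the 19 GABA-A subunit genes was highest in Ctrl, though not every class of subunit was. All 19 summed to 141 to 161 CPM in ChryM and 159 to 175 CPM in Model, against 192 to 209 CPM in Ctrl, without overlap between Ctrl and either group. The 6 alpha subunit genes summed to 31.9 ± 3.03 FPKM in ChryM, 35.8 ± 3.69 FPKM in Model and 47.1 ± 1.96 FPKM in Ctrl (SD, n = 3 each). The 3 gamma subunit genes summed to 6.16 ± 0.586 FPKM in ChryM, 7.40 ± 2.05 FPKM in Model and 10.3 ± 0.922 FPKM in Ctrl. Ctrl lay above both other groups without overlap in the alpha and in the gamma sum. The sums of the 3 beta subunit genes overlapped between all groups. The delta subunit gene stood at 4.86 ± 1.84 FPKM in ChryM, 4.90 ± 0.781 FPKM in Model and 3.44 ± 1.68 FPKM in Ctrl, and the 3 rho subunit genes summed to 2.46 ± 1.14 FPKM in ChryM, 2.19 ± 1.60 FPKM in Model and 1.99 ± 0.946 FPKM in Ctrl, and the groups overlapped in both. No tested subunit gene was called on its own, and these sums were formed after the data were seen and were not tested.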
